A study of Caenorhabditis elegans with 2 samples.

Results

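The regions described here are 386 candidate sites of the homeodomain protein CEH-45. They lie inside introns, away from gene starts and from the genes of rRNAs, tRNAs, snRNAs and snoRNAs. They were chosen by their signal. The 2000 peaks of highest signal were taken from a ranked list of 108916 candidates made by chromatin immunoprecipitation followed by sequencing (ChIP-seq), and a peak was kept where its summit lay inside a protein-coding gene but in none of the exons of such a gene. Summits near the start of a protein-coding transcript (up to 1000 bp before it or 250 bp after it) were left out. So were those within 250 bp of the gene of an rRNA, a tRNA, an snRNA or an snoRNA. Genes of other RNAs were not removed, and some of the strongest members lie in them. The same position was shared by 28688 ranked candidates, of which 28302 fell outside the 2000 and are called the other intronic candidates. Both samples were whole late embryos of Caenorhabditis elegans strain RW12292, in which genome editing placed TY1, EGFP and 3xFLAG tags at ceh-45 (st12292[ceh-45::TY1::EGFP::3xFLAG] I), with an age label of 2 hours. Embryos came from bleached adults, no treatment is labelled, and the 2 biological replicates form 1 group. The precipitation used an antibody against GFP per the sample descriptions, although the antibody field of the labels reads ceh-45. Whole embryos hold every embryonic cell type, so a signal cannot be placed in a tissue, and the control library was not analysed here.

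CEH-45 belongs to the goosecoid class of homeodomain proteins, transcription factors known in other animals from the organizer region of early embryos, which bind the core TAATCC. Introns of C. elegans can hold enhancers and whole genes of other RNAs, and they also hold many simple and dispersed repeats. A ChIP-seq peak is a place where more reads piled up than around it. Such a peak can be binding by the tagged protein, and regions of repeated or very open DNA are known to give peaks with many antibodies.

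The sequences of 13 members show what these introns hold at the summit. Each is the plus strand of the RefSeq genome (build ce11) over the summit and the 50 bp on either side, written 5′ to 3′. They were picked after their values were seen. In the first 4 the capitals mark a unit of a tandem array, the commonest run as long as the period of best self-match found by comparing the summit and 100 bp on either side with itself. The period was 22 bp in cmk-1, 25 bp in Y32F6A.5, 34 bp in srw-100 and 10 bp in K09C6.8. The marked run occurs 5 times in K09C6.8. In the other windows every run of that length occurs 1 time, so the first run of the window is marked. Further copies of the unit there differ from it.
cmk-1 (chrIV:1831324-1831424): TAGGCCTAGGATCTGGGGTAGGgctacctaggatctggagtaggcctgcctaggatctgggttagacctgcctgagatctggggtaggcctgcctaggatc
Y32F6A.5 (chrV:10450517-10450617): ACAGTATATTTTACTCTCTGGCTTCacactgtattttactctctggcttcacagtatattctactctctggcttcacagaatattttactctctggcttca
srw-100 (chrV:1713848-1713948): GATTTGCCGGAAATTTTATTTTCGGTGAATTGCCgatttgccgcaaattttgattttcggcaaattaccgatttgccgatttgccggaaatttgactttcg
K09C6.8 (chrV:842779-842879): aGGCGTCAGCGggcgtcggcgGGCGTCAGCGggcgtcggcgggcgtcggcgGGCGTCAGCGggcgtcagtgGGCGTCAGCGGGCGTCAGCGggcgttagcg

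The next 4 show sequence that members share with each other. Capitals mark bases inside a run of 31 that also occurs, on either strand, within 100 bp of the summit of the partner. Members in klp-6 and ckb-2 are partners, and so are those in stim-1 and dpy-1.
klp-6 (chrIII:5031597-5031697): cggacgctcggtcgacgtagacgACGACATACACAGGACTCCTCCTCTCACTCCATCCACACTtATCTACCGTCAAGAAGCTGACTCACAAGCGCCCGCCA
ckb-2 (chrIII:4369442-4369542): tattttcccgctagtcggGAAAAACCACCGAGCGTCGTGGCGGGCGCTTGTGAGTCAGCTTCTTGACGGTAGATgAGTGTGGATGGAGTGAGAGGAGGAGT
stim-1 (chrIII:415544-415644): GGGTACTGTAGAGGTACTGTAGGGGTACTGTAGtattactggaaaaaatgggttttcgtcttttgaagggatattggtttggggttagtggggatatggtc
dpy-1 (chrIII:2035928-2036028): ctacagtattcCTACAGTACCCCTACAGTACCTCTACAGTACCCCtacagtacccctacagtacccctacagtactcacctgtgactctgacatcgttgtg

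The last 5 show a neighbouring gene or a motif. In unc-104 the capitals mark bases of an annotated tRNA pseudogene. In the others they mark a motif on either strand, GGGCGG and GAGAGA in mdt-26, GCGCAA in C02B10.3, GTTCGA in Y57G11C.22 and TAATCC in T28D6.3. GGGCGG and GAGAGA lie end to end in mdt-26, the first of them on the minus strand. TAATCC occurs at 2 places in T28D6.3.
unc-104 (chrII:7001561-7001661): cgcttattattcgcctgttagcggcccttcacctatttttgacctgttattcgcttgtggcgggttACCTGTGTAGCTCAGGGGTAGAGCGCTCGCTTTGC
mdt-26 (chrII:5661788-5661888): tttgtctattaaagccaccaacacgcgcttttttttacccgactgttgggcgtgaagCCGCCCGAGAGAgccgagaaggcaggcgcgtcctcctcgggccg
C02B10.3 (chrIV:5100232-5100332): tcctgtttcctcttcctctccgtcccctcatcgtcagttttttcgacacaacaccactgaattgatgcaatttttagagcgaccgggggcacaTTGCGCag
Y57G11C.22 (chrIV:14838325-14838425): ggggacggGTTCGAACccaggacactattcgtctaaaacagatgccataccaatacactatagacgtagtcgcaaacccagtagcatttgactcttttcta
T28D6.3 (chrIII:11367405-11367505): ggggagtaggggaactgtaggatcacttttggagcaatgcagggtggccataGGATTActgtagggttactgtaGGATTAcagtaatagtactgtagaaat

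All 386 members were 304 bp wide with the summit in the middle, and none overlapped another. Their signal, the authors' peak value, had a lowest value of 50.3, a median of 55 and a highest value of 240. The other intronic candidates had a median of 18.7. This difference was fixed by the choice of members. Most members stood near the limit of the 2000: 36 ranked within the first 500, and 249 ranked beyond 1000. The last members inside were in Y43F8C.3 (50.37), Y67D8A.2 (50.35) and ZK6.8 (50.34), and the first positional matches outside were in F55A4.7 (50.32), dhcr-7 (50.26) and usp-50 (50.25). Members lay on all 6 nuclear chromosomes, 80 on I, 51 on II, 88 on III, 49 on IV, 65 on V and 53 on X. Chromosome III held 22.8% of members (exact 95% interval 18.7 to 27.3) and 18% of the other intronic candidates. Read counts are not in the lists, so depth is unknown and every interval covers counting error over peaks only.

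The strongest member lay in an intron of ints-8, which encodes a subunit of the Integrator complex that processes snRNA transcripts. Its signal was 240, with 115 in replicate 1 and 113 in replicate 2, each from that replicate's own list. The summit (13463978 on chromosome I) lay inside rpr-1, which encodes the RNA subunit of RNase P and is annotated as ncRNA, a class that the rule did not remove. The second lay in the second intron of Y47H10A.4 and had a signal of 199, with 102 in replicate 1 and 105 in replicate 2. Both replicates gave nearly the same value at these 2 members. Next came the repeat array of cmk-1, the gene of calcium/calmodulin-dependent protein kinase I, with a signal of 175. There replicate 1 gave 92.9 and replicate 2 gave 63.7. The member of mdt-26, a subunit gene of the Mediator complex that links transcription factors to RNA polymerase II, had a signal of 154, with 81.1 in replicate 1 and 80.8 in replicate 2. It lay in the first intron, 657 bp from the nearest start.

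In klp-6, which encodes a kinesin-3 motor of ciliated neurons, the signal was 152, with 87.3 in replicate 1 and 57 in replicate 2. In unc-104, the kinesin-3 motor that carries synaptic vesicle precursors along axons, it was 112, with 64.1 in replicate 1 and 45.3 in replicate 2. Replicate 1 was the higher one at both. The member of stim-1, which encodes the calcium sensor of the endoplasmic reticulum, had 109, with 65.4 in replicate 1 and 58.1 in replicate 2. In let-268, the lysyl hydroxylase gene needed for collagen secretion, the signal was 124, with 81.8 in replicate 1 and 44.5 in replicate 2. The choline kinase gene ckb-2 and the alpha-tubulin gene tba-7 each held a member of signal 106. In ckb-2 replicate 1 gave 78.1 and replicate 2 gave 31.9, whereas in tba-7 replicate 1 gave 49.4 and replicate 2 gave 59.0.

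The other members of the 20 strongest had signals between 79.5 and 120.3. The member of Y41G9A.17 had 120.3, with 75.8 in replicate 1 and 47.1 in replicate 2, and that of Y57G11C.22 had 115, with 69.6 in replicate 1 and 44.6 in replicate 2. In srw-100, a chemoreceptor gene, the signal was 104, with 58.4 in replicate 1 and 47.0 in replicate 2. In srt-52, of another chemoreceptor family, it was 93.8, with 38.2 in replicate 1 and 54.2 in replicate 2. Which replicate was higher thus varied between members. The strongest of 3 members in Y32F6A.5 had 100.9, with 60.8 in replicate 1 and 39.1 in replicate 2. That of lsy-22, a gene of a Groucho-related co-repressor with a role in taste neuron asymmetry, had 96.9, with 58.6 in replicate 1 and 33.0 in replicate 2, and lay in a first intron of 11392 bp. In mom-1, the Porcupine homologue needed to make active Wnt ligands, the signal was 96.8, with 41.7 in replicate 1 and 56.1 in replicate 2. In ppfr-1, a regulatory subunit gene of protein phosphatase 4, it was 94.3, with 62.3 in replicate 1 and 33.6 in replicate 2. The weakest of the 20 were in hmr-1 (85.5), the gene of the classical cadherin, and in Y18H1A.14 (79.5), where the replicates gave 40.5 and 41.0. The plot of these members by replicate shows the gap between replicates beside each signal.

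**Figure D1:**
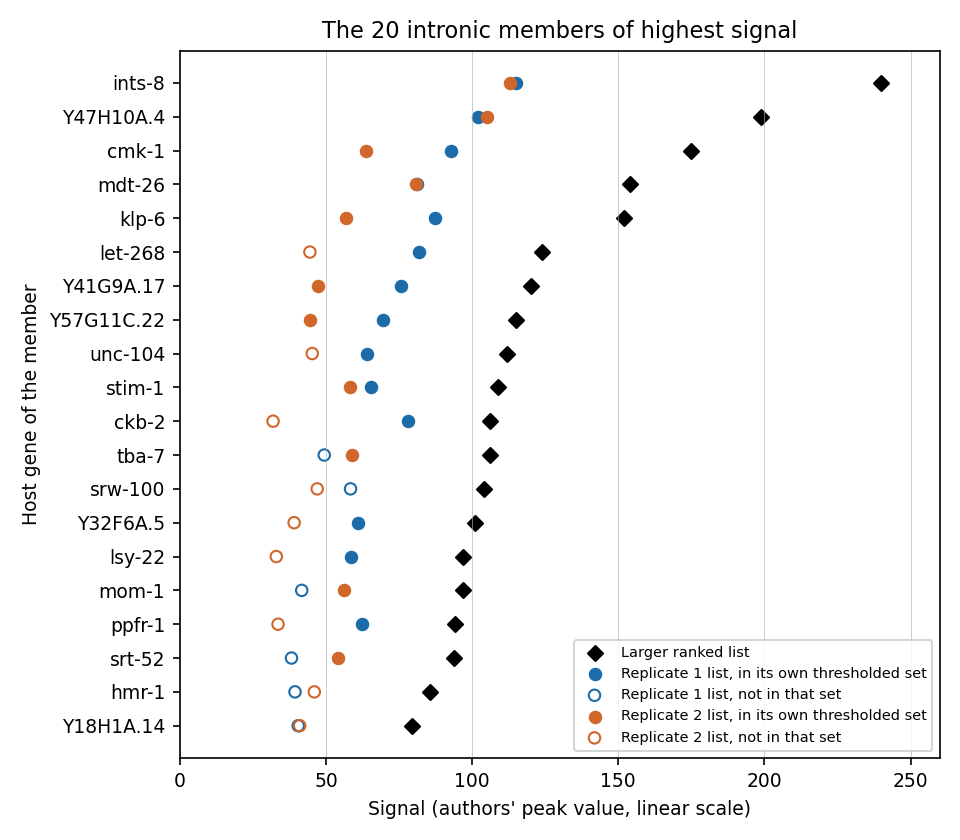
Signal of the 20 members of highest signal, by host gene, in the larger ranked list (black) and in the list of each replicate (colours, with filled points in that replicate's own thresholded set). Replicate values lie between 31.9 and 115, below the list value of 79.5 to 240 in every row. The scales of the lists are not stated to be the same.

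Of the 386 members, 62 passed the authors' threshold in the larger set, 16.1% (exact 95% interval 12.5 to 20.1). Over all ranked candidates 0.503% passed, and over all 2000 peaks of highest signal 514 did, 25.7%. Threshold and signal come from the same data as the choice, so the share above the background is not a result. Strong candidates elsewhere passed at 8.86% in exons (21 of 237) and at 13.2% in distal intergenic sequence (62 of 469). In the conservative set 48 members overlapped a passing peak, 12.4%, against 0.446% of all candidates. Members that passed had signals of 51.4 to 240 with a median of 72.8. Those that did not pass had signals of 50.3 to 79.5 with a median of 53.9, so the 2 ranges overlapped widely. The highest of these was in Y18H1A.14, whose irreproducible discovery rate of 0.00156 is under the limit of 0.01 although the peak is absent from the set.

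Each replicate's own thresholded set held few members. The list used for the choice was made from both replicates, so a share above that of all candidates is not a result. Replicate 1's own set overlapped 21 of them, 5.44% (exact 95% interval 3.40 to 8.20), against 0.252% of all candidates, and replicate 2's own set overlapped 15, 3.89% (2.19 to 6.33), against 0.222%. Only 8 members were in both: those in ints-8, Y47H10A.4, cmk-1, mdt-26, klp-6, Y41G9A.17, Y57G11C.22 and stim-1. A further 20 were in 1 of the sets, and 358 were in neither. A candidate without regard to the threshold was more common. Replicate 1 listed a candidate at 370 members, replicate 2 at 368, and both at 352. No member lacked a candidate in both replicates.

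Replicate values come from separate lists and are set side by side as deposited, so that a difference in scale between the lists and a difference between the replicates cannot be told apart. Where both replicates listed a candidate, the value in replicate 1 was higher at 207 of 352. The log2 ratio of replicate 1 over replicate 2 had a median of 0.122 and an SD of 0.589. Over the 352 members the rank correlation of the replicates (Spearman) was -0.20, and the Pearson correlation of log10 signals was 0.10. For the 61 past the threshold they were 0.31 and 0.55, and for the 291 others both were -0.56. Members were chosen on a signal made from both replicates, and the part of this choice in the correlations was not tested. At 37 members the replicates were more than 2-fold apart, 27 with replicate 1 higher and 10 with replicate 2 higher. The widest gaps, named after their values were seen, were in Y54E10A.17 and in eat-20. In Y54E10A.17 replicate 1 gave 39.3 and replicate 2 gave 9.98. In eat-20, an EGF-repeat protein gene, replicate 1 gave 12.3 and replicate 2 gave 40.3. Yet the larger list gave these 2 members similar signals, 51.8 and 50.8. Members listed by 1 replicate alone included those in Y53F4B.21 (49.6 in replicate 1) and sre-53 (42.9 in replicate 2).

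**Figure D2:**
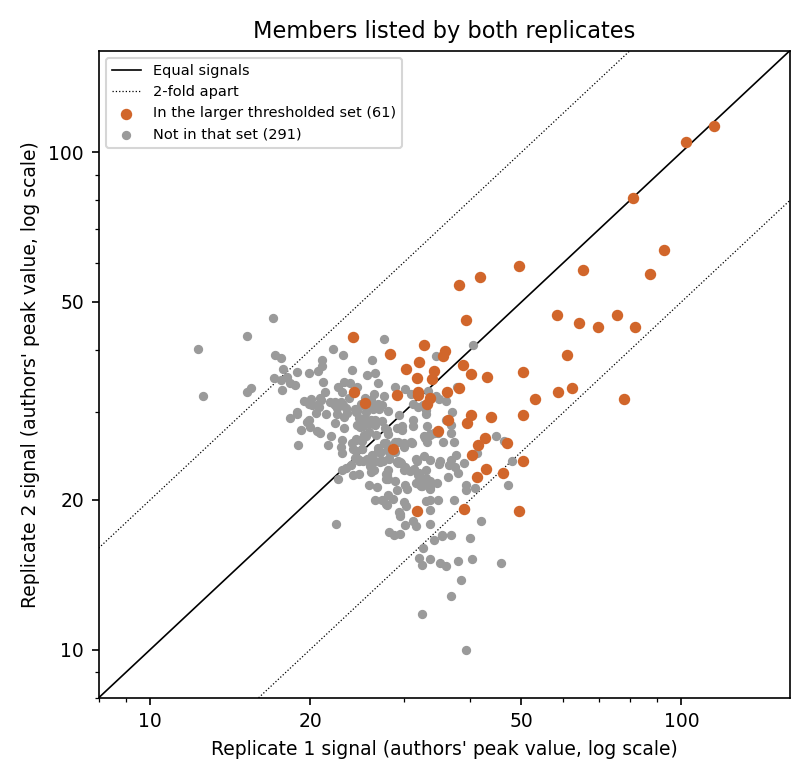
Signal in replicate 1 (x axis) and replicate 2 (y axis), both on log scales, of the 352 members listed by both. The 61 in the larger thresholded set reach 115 and 113, the 291 others stay lower and spread across the diagonal, and the shape of the cloud is partly set by the choice of members on a signal of the whole series.

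The shortest annotated intron around the summit was longer for members than for the other intronic candidates. Its median length was 1338 bp, with quartiles of 636 and 3967 bp, against 1003 bp, with quartiles of 473 and 2529 bp. Introns over 1000 bp held 58.0% of members (exact 95% interval 52.9 to 63.0) and 50.1% of the others. First introns held 25.4% (21.1 to 30) and 23.7%, a difference within the interval. Within its intron a member lay a median of 45.8% of the way from the 5′ end, against 48.2% for the others, and the nearest start was a median of 1749.5 bp away, against 1740 bp. The longest introns with a member were in Y75B7AL.2 (20993 bp), in crh-1, the gene of the CREB transcription factor (18615 bp), and in hmr-1 (18310 bp, with 2 members). In crh-1 the signal was 64, with 41.2 in replicate 1 and 22.2 in replicate 2. In Y75B7AL.2 it was 56.9, with 33.7 in replicate 1 and 27 in replicate 2. These comparisons with the other intronic candidates are descriptions and were not tested.

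The members fell in 361 host genes, 11 members lying in more than 1 gene at once. Among host genes, 28 held more than 1 member and 6 held at least 3. The cadherin gene hmr-1 held 5, spread over 4 introns, with signals of 85.5, 52.6, 52.2, 51.4 and 51. Its strongest member had 39.4 in replicate 1 and 46.0 in replicate 2, and was in neither replicate's own set. The mechanosensory channel gene trp-4 held 3, with signals of 77.5, 76.3 and 57.4, of which the first 2 passed the threshold. In lsy-22, 3 members shared the first intron, with signals of 96.9, 60.9 and 51.5. The gene of the TFEB homologue hlh-30, which controls lysosome and autophagy genes, held 3, with signals of 54.4, 52.2 and 50.8, and none of them passed. The 3 of Y67D8A.2 (66.4, 58.6 and 50.4) did not pass either. The 3 of Y32F6A.5 (100.9, 65.7 and 63.0) lie in 1 intron of 4886 bp with the same 25 bp repeat, so they share a source and are not separate evidence.

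Of the 8779 protein-coding genes with any candidate at such a position, 361 (4.11%) held a member. Homeobox genes held 1 of 61 (1.64%), in zag-1, a zinc-finger homeodomain regulator of neurons, with a signal of 60.0 (26.2 in replicate 1 and 38.3 in replicate 2). Nuclear hormone receptor genes held 4 of 144 (2.78%). The 3 strongest were in nhr-15 (64), in daf-12 (57.4), the receptor of the dafachronic acid hormones, and in nhr-146 (50.9). Chemoreceptor genes held 11 of 452 (2.43%), led by srw-100, srt-52 and sre-13 (65.9). Cuticle collagen genes held 0 of 30. None of the members in homeobox or nuclear receptor genes passed the threshold.

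Genes of ion channels and synapses held 9 of 172 (5.23%), with 11 members. Besides trp-4, the strongest was in cla-1 (70.5, with 28.3 in replicate 1 and 39.3 in replicate 2), which encodes an active zone protein. Those in the calcium channel gene egl-19 and the potassium channel gene slo-1 had 51.1 each. Genes of cell adhesion and axon guidance held 6 of 53 (11.3%), with 11 members of which 5 were in hmr-1. The next were in him-4, the gene of the extracellular matrix protein hemicentin (57.9, listed by replicate 2 alone at 33.8), and in the semaphorin gene smp-1 (54.7). The member in the ephrin gene vab-2 had 54.2, and the ephrin receptor gene vab-1 held members of 52.1 and 50.6. Muscle genes held 2 of 16 (12.5%), in the dystrophin gene dys-1 (53.9) and the tropomyosin gene lev-11 (50.4). Longer genes can hold more candidates, which was not adjusted for, and no share was tested against another. The tagged gene ceh-45 itself (WBGene00022837, chromosome I, 1128324 to 1131765) held 2 candidates at such a position and 0 members, the higher of signal 28.5 at rank 24921.

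Members were richer in GC than their own flanks. The summit with 50 bp on either side held 45.7% ± 8.96 GC (SD, 386 members), and the same width 300 bp to the lower-coordinate side held 37.9% ± 9.44. For the other intronic candidates the values were 35.7% ± 8.71 and 35.7% ± 8.86. The summit was richer in GC than its flank at 278 members, 72.0% (exact 95% interval 67.3 to 76.4), against 47.7% of the others. In the profile by distance the mean GC of members was 45.82% at the summit and 37.76% at 300 bp on the lower-coordinate side, and the other intronic candidates stood at 35.35% and 35.55%. Without the members in tandem repeats, the summit value was 45.77%. The values per member ran from 15.8% to 80.2%. The richest was the 10 bp array of K09C6.8, shown among the sequences, at 80.2% against 39.6% in its flank. At mdt-26 the summit held 59.4% and the flank 15.8%, and at ints-8 they held 57.4% and 22.8%. Y47H10A.4 went the other way, with 25.7% and 39.6%. GC content is known to affect how fragments amplify and are sequenced, and its part in the signal was not tested.

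**Figure D3:**
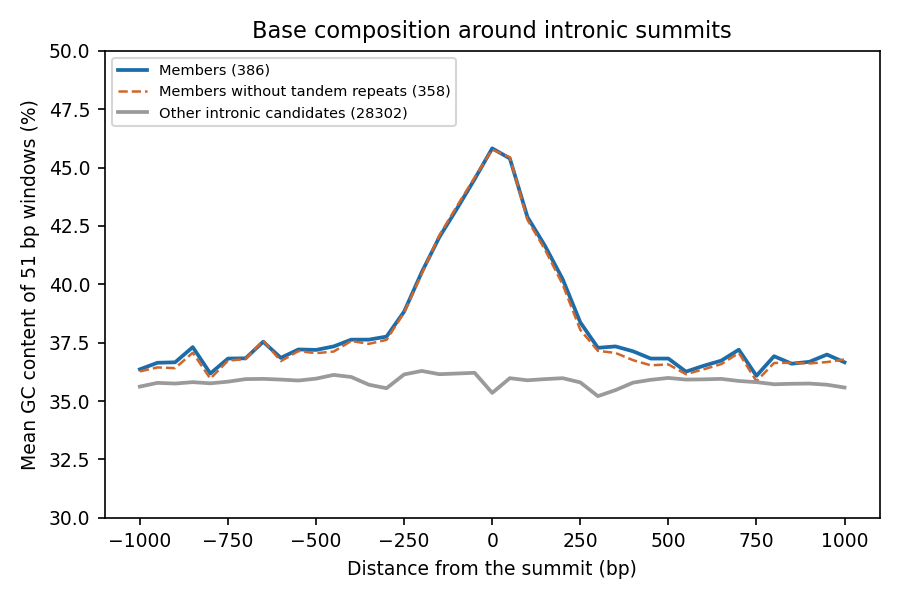
Mean GC content (y axis, percent) of 51 bp windows by distance from the summit (x axis, bp) for all members, for members outside tandem repeats and for the other intronic candidates. Members peak at 45.82% at the summit and fall below 39% by 250 bp on either side, whereas the other intronic candidates stay between 35% and 37%.

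Tandem repeats were at a larger share of members than of the other intronic candidates. A window of 100 bp on either side of the summit was called a tandem repeat where at least 70.0% of its bases matched the base 1 period away, for a period of 2 to 70 bp. This held for 28 members, 7.25% (exact 95% interval 4.87 to 10.3), and for 1.73% of the others. It held for 7 of the 36 members of the first 500 ranks, 19.4%, and for 21 of the 350 later ones, 6.0%. Of the 28, 14 passed the threshold, 50%, against 48 of the 358 other members, 13.4%. These splits by rank and threshold rest on the signal that chose the members and were not tested. Members of 1 array, such as the 3 in Y32F6A.5, were counted singly. The strongest were in Y47H10A.4 (85.1% self-match, period 67 bp), srw-100 (71.9%, 34 bp), Y32F6A.5 (91.5%, 25 bp) and Y18H1A.14 (76.2%, 33 bp). The array of cmk-1 printed above reached 65.4% and stayed below the limit. Members of this kind were also found in daf-2 (76.7, period 35 bp), the insulin receptor gene, and in sbp-1 (69.9, period 43 bp), the SREBP gene of lipid synthesis.

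Sequence present more than once in the genome was also at a larger share of members. At least 1 word of 31 bases with a second copy was found in 40.4% of members (exact 95% interval 35.5 to 45.5) and 29.2% of the others. Windows with most of their words in several copies made up 44 members, 11.4% (8.41 to 15), and 7.13% of the others. Among the 36 members of the first 500 ranks, 14 were of this kind, 38.9%, against 30 of the 350 later ones, 8.57%. This split by rank was not tested either. Reads from such sequence can be placed at more than 1 copy, and how the authors placed them is not given in the sources used here. Lower case in the RefSeq genome is a masking of repeats, but it did not follow the tandem repeats closely. The arrays of K09C6.8 (90.1% self-match) and Y10G11A.1 (95.4%) had 0% of bases in lower case, whereas that of Y47H10A.4 (85.1%) had 100%. A share in lower case is therefore not a share of repeats. Bases in lower case were fewer in members, a mean of 36.6% against 46.9%. Of the members 29.8% had none, against 13.2% of the others. Yet windows of the summit and 50 bp on either side that were wholly in lower case were also more frequent. They made up 12.7% of members (exact 95% interval 9.54 to 16.4) and 8.70% of the others.

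Words of 31 bases tied 36 members into 14 families of 2 to 4. One of the families of 4 joined stim-1 (109), Y50D7A.3 (53.5), Y50D7A.10 (52.4) and dpy-1 (52), all on chromosome III, which share the array with the unit of 11 bp seen in the printed sequences. Another joined zipt-15 (72.8), ekl-4 (59.1), hxk-3 (53.7) and mltn-5 (53.5). Members of a family share sequence and do not count as independent sites.

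**Figure D4:**
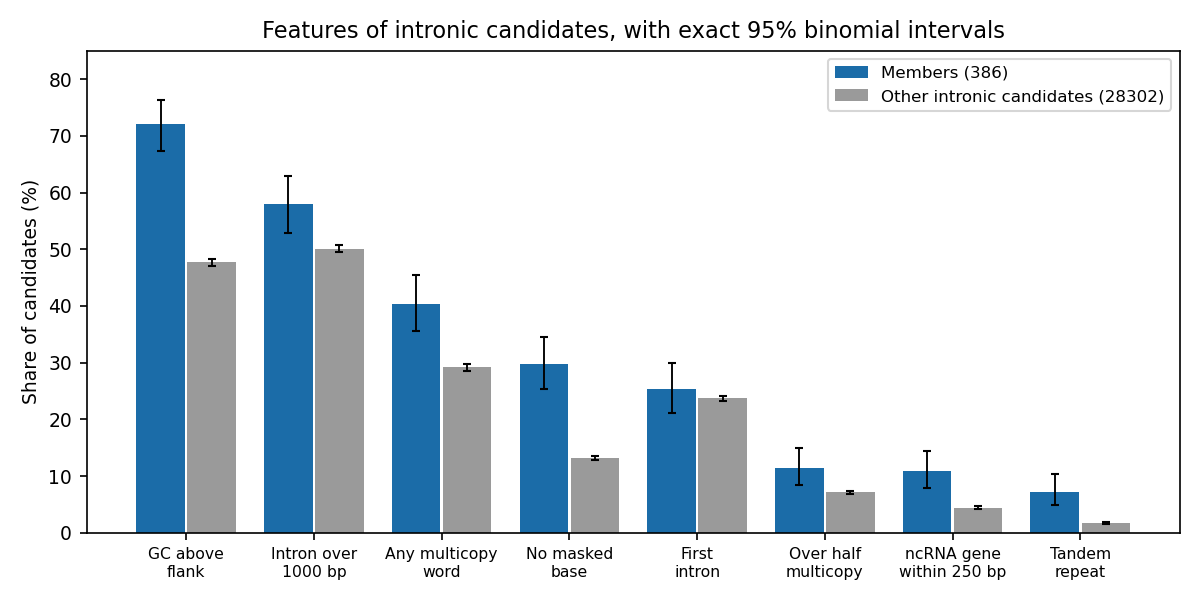
Share of candidates (y axis, percent) with each feature, for members (left bars) and the other intronic candidates (right bars), with exact 95% binomial intervals over peaks. Members stand at 72.0% and 47.7% of the others for GC above the flank, at 7.25% and 1.73% for tandem repeats and at 10.9% and 4.43% for an ncRNA gene nearby, while first introns hold 25.4% and 23.7%.

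The rule removed tRNA, snRNA, snoRNA and rRNA genes, and no member lay within 250 bp of one in the RefSeq annotation either. Genes of the broad ncRNA class remained. They lay within 250 bp of 42 members, 10.9% (exact 95% interval 7.96 to 14.4), against 4.43% of the other intronic candidates, and the summit was inside one at 20 members, 5.18% (3.19 to 7.89), against 1.46%. Besides rpr-1 in ints-8, the members of klp-6 and ckb-2 lay in srpr-2.2 and srpr-1.2. Both genes are 299 bp long and belong to the class of signal recognition particle RNA genes, whose RNA is part of the particle that takes new secretory proteins to the membrane. Bases in the runs they share are the capitals in the printed pair. The summit of tba-7 lay in T28D6.13 and T28D6.15, and that of sre-13 in lfor-1. Members in mbl-1 (72.8, in K02H8.5), syd-9 (58.9, in ZK867.14) and lin-29 (53.3, in Y17G7A.3) were further cases, all named after their values were seen.

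Transfer RNA pseudogenes lay within 250 bp of 4 members, 1.04% (exact 95% interval 0.283 to 2.63), against 0.194% of the others. The strongest was in unc-104, where the pseudogene started 16 bp from the summit and fills the last 35 bases of the printed window. The others were in dyf-19 (69.6), BE0003N10.1 (51.9) and jip-1 (51.4). Genes of microRNAs lay near 2 members, 0.518% (exact 95% interval 0.0628 to 1.86), against 0.166% of the others. These were in Y38F2AR.10 (69.5, 167 bp from mir-4930) and in F09A5.3 (51.6, 5 bp from mir-54). Genes of piRNAs lay near 1 member, 0.259%, against 2.16% of the others.

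Sequence motifs were not used by the rule and were tested. For 9 motifs, on either strand, the share of members with the motif at the summit or within 50 bp of it was compared with the share in the flank of the same members by an exact two-sided McNemar test, with Benjamini-Hochberg adjustment over the 9. Both passing motifs were put on the list with earlier results of these data known, so they are not independent evidence. GAGAGA, the core of GAGA repeats, was found at 41 summits and 19 flanks, 10.6% (exact 95% interval 7.73 to 14.1) and 4.92% (2.99 to 7.58), with 39 members having it at the summit only and 17 in the flank only (adjusted exact p = 0.0205). GCGCAA was found at 21 summits and 6 flanks, 5.44% (3.40 to 8.20) and 1.55% (0.573 to 3.35), with 19 at the summit only and 4 in the flank only (adjusted exact p = 0.0205). These were 2 of 9 motifs, 22.2%. The other intronic candidates held GAGAGA at 4.42% of summits and 4.99% of flanks, and GCGCAA at 3.12% and 2.06%. The summits were also richer in GC than the flanks (45.7% and 37.9%), and the part of base composition in these differences was not tested. Members that share sequence count more than once, and the p-values describe these lists of peaks and not a population of embryos.

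Neither difference held at every setting. In windows of 51 bp the adjusted exact p was 0.592 for GAGAGA and 0.619 for GCGCAA. With the flank on the other side it was 0.0575 and 0.258, and there the GC-rich motif GGGCGG passed instead (adjusted exact p = 0.0391), at 5.18% of summits against 1.55% of flanks. Among the 137 members left with the 1000 peaks of highest signal it was 0.279 for each. Strong distal intergenic candidates held GAGAGA at 11.1% of summits and 4.26% of flanks, and strong exonic ones at 4.64% and 8.02%. GAGAGA was found in 0 of the 28 tandem members and 41 of the 358 others, and without the members near ncRNA genes or pseudogenes its adjusted exact p was 0.161. The strongest members with GAGAGA were in ints-8, mdt-26 and ppfr-1. Those with GCGCAA were in hmr-1, C02B10.3 and Y43F8A.2 (65.8).

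The core of the goosecoid class, TAATCC, did not pass. It was found at 20 summits and 15 flanks, 5.18% (exact 95% interval 3.19 to 7.89) and 3.89% (2.19 to 6.33), with 19 at the summit only and 14 in the flank only (adjusted exact p = 0.562). The other intronic candidates held it at 3.85% and 3.47%. Among members past the threshold it was at 2 of 62 summits, in T28D6.3 (77.5) and in the trp-4 member of signal 76.3. The window of T28D6.3 was itself repetitive, with a self-match of 60.5% at a period of 11 bp, below the limit for a tandem repeat. At T28D6.3 replicate 1 gave 43.0 and replicate 2 gave 35.4. The general homeodomain core TAATTA was at 5 summits and 13 flanks, 1.30% and 3.37% (adjusted exact p = 0.289). GTTCGA, the core of the internal B box of tRNA genes, was at 11 summits and 18 flanks, 2.85% and 4.66% (adjusted exact p = 0.446). Its strongest member was in Y57G11C.22, with no annotated pseudogene or RNA gene within 250 bp. GGGCGG (5.18% and 3.37%), the E box CANNTG (25.9% and 29.3%), the GATA core GATAA (15.3% and 16.8%) and the forkhead site TGTTTAC (0 summits and 2 flanks) did not pass, with adjusted exact p between 0.446 and 0.614. A match is a run of letters and does not show that a factor bound there.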

How the data were processed

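The 2 samples are ChIP-seq libraries of whole late embryos, fragmented by sonication and selected at 200 to 800 bp per the labels. The authors deposited peak lists on build ce11 ranked by irreproducible discovery rate (IDR), in a larger and a conservative version for the series and a pair for each replicate (41437 and 43328 ranked candidates, 258 and 227 passing). The signal of each peak and the −log10 of its global IDR are the authors' deposited values. Not given in the sources used here are the aligner, the peak caller and what the larger list compared. Replicate values come from separate lists, whose scales are not stated to be the same. They are set side by side as deposited, with no test.

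Members were found by the stated rule in the larger ranked list (548 passing) with Ensembl release 115 genes (19973 protein-coding genes and 1107 small RNA genes), and sequence came from the RefSeq assembly of the same coordinates. Overlap means at least 1 bp. The intron of a candidate is the shortest annotated one around its summit. A member's value in a replicate is that of the overlapping candidate of highest signal in that replicate's ranked list. Overlap with a replicate's own thresholded set was found separately and can rest on another peak. Motif shares were compared by the exact two-sided McNemar test with Benjamini-Hochberg adjustment over the 9 motifs and a threshold of 0.05, tested on simulated data. Intervals are exact 95% binomial intervals (Clopper-Pearson). The members, gene lists and motifs were chosen with earlier results of these data known.

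Genes named are the hosts of the 20 strongest members, of members in both replicates' own sets, of the 3 strongest in each gene list, of at least 3 members, of the 3 longest introns and of the 3 on either side of the limit, plus ceh-45. Others, such as those in repeats, near other genes or with a motif, were named after their values were seen. Alternatives were other limits, windows, flanks, sets and annotations. The tools were scipy 1.17.1, pandas 2.3.3, numpy 2.4.6 and matplotlib 3.10.9 under Python 3.11.15.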

Additional observations from a re-analysis of the deposited data

How the results depend on the processing

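The number of members was 137 with the 1000 and 882 with the 4000 peaks of highest signal, and 366 without summits in exons of any biotype. It was 386 with 500 bp around small RNA genes, and the conservative ranked list under the same rule also gave 386, of which 384 were the same intervals. The share past the threshold was 2.07% at an IDR of 0.001, 12.4% in the conservative set, 41.6% with the 1000 and 7.03% with the 4000. The share in a replicate's own set was 7.25% with either set, 5.44% with the set of replicate 1 alone and 3.89% with that of replicate 2 alone. The number of passing motifs was 0 with 51 bp windows, 1 with the opposite flank, 0 with the 1000 and 4 with the 4000. It was 0 among members in either replicate's own set and in each replicate's own set taken alone, where 15 to 28 members remain. These subsets were cut from members chosen on the list made from both replicates, so neither replicate was left out of the choice. With the 4000 peaks GCGCAA passed, as did 3 motifs that had not, while GAGAGA had an adjusted exact McNemar p of 0.131. GCGCAA and GGGCGG were each higher at these summits, by 2.61 percentage points. TAATTA and GATAA were lower at summits, with differences of -2.27 and -5.33 percentage points (adjusted exact McNemar p = 0.0149 and 0.0103). GCGCAA had a summit minus flank difference of -3.57 percentage points among the 28 members in either own set (0% of summits and 3.57% of flanks). It was -4.76 among the 21 in the own set of replicate 1 (0% and 4.76%), who are part of the 28 (adjusted exact McNemar p = 1.00 each). So few members cannot show a reversal. Further settings were added after the data were seen. Without tandem repeats the number stayed 2, with GCGCAA higher at summits by 3.91 percentage points, and without windows mostly in several copies it also stayed 2, and without members near ncRNA genes or pseudogenes it was 1. GC at the summit and intron length moved by less than their SD over members under every window and intron choice run. The cause of these shifts was not tested. No paired analysis was possible because the 2 samples form 1 group. The lists hold no read counts, so what depth limits cannot be said.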

Other observations

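Counts of all words of 6 bases, read on both strands, were compared between the summit and flank windows as a description, with no test. The words with the largest gain were GCGAAA, at 45 summits and 19 flanks (11.7% and 4.92% of members, 7.97% of the summits of other intronic candidates), GGCAAA, at 71 and 48, and CCCCAC, at 27 and 5. The words with the largest loss held only A and T or nearly so. AAAAAT was at 112 summits and 175 flanks (29.0% and 45.3%), and CAAAAA at 77 and 139. These shifts run with the higher GC content of the summits, whose part in them was not tested.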
